A study of Mus musculus with 29 samples.

Results

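The comparison described here sets the caudate nucleus of HdhQ150 mice against that of wild-type (WT) littermates at 6 months of age, the youngest of the 3 ages sampled. It comprised 10 of the 29 arrays of the series, 5 HdhQ150 and 5 WT, chosen by the genotype and age in their titles, and it was read across the 19938 genes whose probe set carried 1 gene symbol. In HdhQ150 mice, bred to model Huntington's disease by a knock-in, a long CAG repeat stands in the mouse huntingtin gene, Htt, under its own promoter, so the mutant protein is made wherever Htt is active. Both genotypes shared the background that the labels write as 129/Ola x C57BL6/J, and the labels name no treatment. The labels do not say whether HdhQ150 mice carried the repeat on 1 or on both copies of Htt. The HdhQ150 group was labelled as 4 females and 1 male (mouse 1003), and the WT group as 3 females and 2 males (mice WT-1002 and WT-1004). Each array held RNA of 1 mouse, and mice at 12 and 18 months were other animals. Where values are listed for every mouse, HdhQ150 mice stand in the order 1001, 1003, 1016, 1017 and 1023, and WT mice in the order WT-1002, WT-1004, WT-1011, WT-1018 and WT-1020. Levels are log2 values, so a difference of 1 is a doubling, and differences are HdhQ150 minus WT. A gene passed where the limma p, adjusted by Benjamini and Hochberg over all 19938 genes, was under 0.05.

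The caudate nucleus forms the striatum with the putamen, and most of its neurons are medium spiny projection neurons that release GABA. Direct pathway neurons carry the dopamine receptor Drd1 with the peptide genes Tac1 and Pdyn, whereas indirect pathway neurons carry Drd2 and the enkephalin gene Penk. In Huntington's disease these cells are the most vulnerable, and loss of their identity transcripts is known to precede their death. Brain cells make their own cholesterol, because that of the blood does not cross the blood-brain barrier, and lower cholesterol synthesis has been described in models of the disease.

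The 10 arrays were alike, with pairwise correlations of 0.983 to 0.995. HdhQ150 mouse 1023 did not match its label. It was labelled female, but the female-specific transcript Xist stood at 5.95 and the Y-linked gene Eif2s3y at 8.30, whereas the other labelled females of the series had Xist at 11.11 to 11.64 (n = 22) and the labelled males at 5.50 to 6.13 (n = 6). It was also the HdhQ150 array least like its own group, correlating on average at 0.991 with the other HdhQ150 arrays and at 0.992 with WT arrays, while the other 4 HdhQ150 mice had 0.992 to 0.993 and 0.988 to 0.990. This was not particular to mouse 1023: WT-1011 averaged 0.990 with HdhQ150 arrays and 0.988 with the other WT arrays. Mice WT-1002, WT-1004 and WT-1018 had equal averages with both groups. WT mouse WT-454 at 12 months had the lowest of limma's array weights, 0.106, against 0.83 to 1.91 in other WT mice of that age. It entered the 6-month result through the shared estimate of spread. Results are therefore given with all arrays and again without mice 1023 and WT-454. Because mouse 1023 was also the HdhQ150 array nearest to WT, counts without it are not independent of its levels, and its genotype was not tested. Choroid plexus markers had a mean level of 7.56 in HdhQ150 mouse 1017 and of 7.74 in each of mice WT-1002 and WT-1020, against 6.29 to 6.67 in the other 7 mice. These markers were high in mice of both groups, but all 13 had a negative difference with all arrays, at a median of -0.235. In limma 0 of the 13 had an unadjusted p under 0.05. Their part in the results was not tested. The dopamine receptor genes Drd1 and Drd2 and the projection neuron gene Ppp1r1b lay above the array medians (7.17 to 7.20 over the genes tested) in all 10 mice.

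With all arrays, 5 of 19938 genes passed at 6 months (0.0251%), 4 lower (0.0201%) and 1 higher (0.00502%). They were the glutathione peroxidase gene Gpx6, the peptidase gene Phex, the sterol regulator Insig1 and Htt itself, all lower in HdhQ150 mice, and the potassium channel subunit gene Kcng1, which was higher. Without mice 1023 and WT-454, 868 genes passed (4.35%), 324 higher (1.63%) and 544 lower (2.73%), and these held all 5. In that fit the share rose with brightness, from 0.376% of the 3988 dimmest genes to 11% of the 3988 brightest, in either direction. The shares of gene lists given below were not matched for brightness. The count with all arrays rested on single mice and on the weighting: it was 188 without mouse 1023, 18 without WT-454, 13 without mouse WT-1011, 8 without 1003, 3 without any of 1001, 1016, 1017, WT-1002, WT-1004 or WT-1020, and 1330 with limma's array weights. At an unadjusted p under 0.05 there were 1268 genes higher (6.36%) and 1470 lower (7.37%) with all arrays. In 635 genes (3.18%) no HdhQ150 mouse overlapped with a WT mouse, 366 with HdhQ150 higher (1.84%) and 269 with HdhQ150 lower (1.35%), and without mouse 1023 there were 2083 such genes (10.4%). Most differences were small: of the 868 genes, 221 of those higher and 442 of those lower reached 1.2-fold, and 22 and 13 reached 1.5-fold.

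Gpx6 had the smallest p of all genes. It belongs to the glutathione peroxidases, enzymes that reduce peroxides with glutathione, and in rodents it is one of the members without selenocysteine. Its level was 6.58, 6.74, 6.56, 6.13 and 6.76 in the HdhQ150 mice, against 7.20, 7.56, 7.72, 7.75 and 8.17 in the WT mice. The highest HdhQ150 mouse lay below the lowest WT mouse, and mouse 1023 stood with its group. The means were 6.55 ± 0.25 in HdhQ150 mice and 7.68 ± 0.35 in WT mice (SD, n = 5 each), a difference of -1.17 (SE 0.132, limma adjusted p = 1.9e-05), or 2.25-fold lower. It passed in all 24 alternative fits that held it, at -1.38 to -1.05. The other 7 measured members of the family did not pass. Gpx1, the widely expressed cytosolic enzyme, stood at 9.13 to 9.45 in HdhQ150 mice, against 8.83 to 9.10 in WT mice, which did not overlap (0.24, limma adjusted p = 0.215). Gpx4, which protects membrane lipids, differed by 0.04 (limma adjusted p = 0.864) and its groups overlapped. Of 26 other antioxidant genes, 0 passed by limma with all arrays, 3 higher and 2 lower had an unadjusted p under 0.05, and 1 passed without mice 1023 and WT-454 (3.85%, against 4.35% of all genes).

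Kcng1 encodes an electrically silent subunit, which makes no potassium channel alone but changes the gating of Kv2 channels when it joins them. Its level was 9.26, 9.13, 9.25, 9.08 and 9.05 in the HdhQ150 mice, against 8.55, 8.69, 8.78, 8.54 and 8.57 in the WT mice. Every HdhQ150 mouse lay above every WT mouse. The gene rose by 0.53 (SE 0.0739, limma adjusted p = 0.000618), or 1.45-fold, and passed in all 25 alternative fits. Among the other 9 silent subunits 0 passed by limma, their differences lay between -0.18 for Kcns2 and 0.14 for Kcnf1, and of these 1 had an unadjusted p under 0.05 (Kcns2). Of 43 other potassium channel genes 0 passed with all arrays by limma, 1 higher and 4 lower had an unadjusted p under 0.05, and their median difference was -0.001, beside 0.006 over all genes.

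Phex encodes a membrane endopeptidase of the neprilysin family, best known from bone, where its loss causes X-linked hypophosphatemia. Its level was 5.87, 5.82, 5.90, 5.85 and 5.97 in the HdhQ150 mice, against 6.49, 6.25, 6.59, 6.40 and 6.64 in the WT mice. The groups did not overlap, and mouse 1003 was the lowest and WT-1020 the highest. Phex fell by 0.64 (SE 0.116, limma adjusted p = 0.0325), or 1.55-fold. It passed in 13 of 24 alternative fits, with adjusted p between 0.00305 and 0.186, and its difference was -0.63 without mice 1023 and WT-454. With all arrays, Phex was not among the 3 genes that passed with mouse 1023 entered as male or with no sex term. Nor did it pass without mouse WT-1020, where 3 genes passed too. Of the other 6 family members none passed, and the closest were the endothelin-converting enzyme Ece1 (0.16, limma adjusted p = 0.321) and neprilysin itself, Mme (-0.27, 0.421). Genes of phosphate and mineral handling had a median difference of 0.091, and 0 of 11 passed by limma with or without the 2 mice, with 1 higher and 1 lower at an unadjusted p under 0.05.

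Htt is the gene that carries the inserted repeat. Its level was 8.77, 8.74, 8.73, 8.75 and 8.88 in the HdhQ150 mice, against 9.15, 9.12, 9.15, 9.19 and 9.11 in the WT mice. The mice of each group lay close together, and mouse 1023 was the highest HdhQ150 mouse but still below every WT mouse. Htt fell by 0.39 (SE 0.0619, limma adjusted p = 0.00457), or 1.31-fold. It missed the threshold in 1 of 25 alternative fits, labelled females alone (limma adjusted p = 0.125). The probe set does not tell the 2 alleles apart. The nearest 25 measured genes on each side of Htt were described as its neighbours on the chromosome. How much of the chromosome the knock-in allele carries with it was not measured. Insig1, described below, lies on the same chromosome as Htt but outside these neighbours, and linkage was not tested. Of these 50 genes 0 passed by limma with all arrays, 6 higher and 3 lower had an unadjusted p under 0.05, and their median was 0.044. Without mice 1023 and WT-454 only Nsd2, a histone methyltransferase gene, passed (2.0% of the 50, against 4.35% of all genes), at -0.27 (limma adjusted p = 0.0185). A list of 19 genes held Htt itself, genes of proteins linked to huntingtin and the DNA repair genes Fan1, Msh3, Pms1 and Pms2, and Htt alone of them passed with all arrays. Without the 2 mice 4 passed (21.1%, against 4.35% of all genes): Hip1r and Crebbp higher, and Zdhhc17, a palmitoyl transferase that binds huntingtin, lower with Htt.

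**Figure D1:**
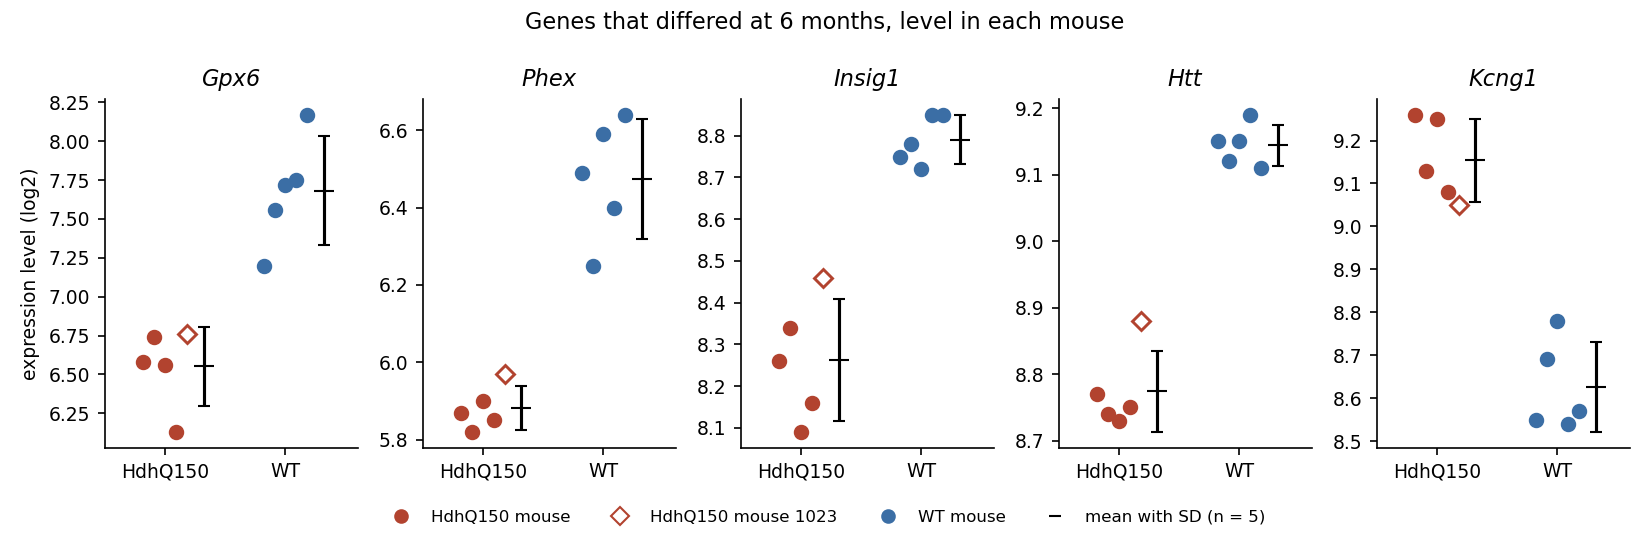
Expression level (log2) in each 6-month mouse of the 5 genes that passed, HdhQ150 left and WT right in each panel, with the mean and SD of 5 mice. In none of the 5 genes do the groups overlap, and mouse 1023 (open diamond) is the HdhQ150 mouse nearest to WT in each.

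Cholesterol genes were described by role. Insig1 and Insig2 are endoplasmic reticulum proteins that hold back the transcription factor SREBP2 when sterols are plentiful, and Insig1 is itself a target of SREBP, as are the enzymes of the pathway. The level of Insig1 was 8.26, 8.34, 8.09, 8.16 and 8.46 in the HdhQ150 mice, against 8.75, 8.78, 8.72, 8.85 and 8.85 in the WT mice. No HdhQ150 mouse reached the WT range, and mouse 1023 came nearest. Insig1 fell by 0.54 (SE 0.101, limma adjusted p = 0.0387), or 1.46-fold. It passed in 12 of 25 alternative fits, with adjusted p between 0.00419 and 0.2. With all arrays, Insig1 was not among the 3 genes that passed with mouse 1023 entered as male or with no sex term. Nor did it pass without mouse WT-1020, where 3 genes passed too. Insig2 had 8.29, 8.43, 8.39, 8.44 and 8.76 in the HdhQ150 mice, against 8.73, 8.73, 8.67, 8.87 and 8.87 in the WT mice. There 4 HdhQ150 mice lay below all WT mice and mouse 1023 lay among them, and its difference of -0.33 did not pass with all arrays (limma adjusted p = 0.13) but did without mice 1023 and WT-454 (-0.39, 0.00985). Without them the sterol carrier Stard4 (-0.32, limma adjusted p = 0.0407) and the SREBP-cleaving protease Mbtps1 (-0.24, 0.0383) passed lower too, so that 4 of 10 regulators passed (40.0%, against 2.73% of all genes lower). Srebf2 and Scap, the factor and its escort, did not pass in either fit, and nor did Srebf1, with differences of 0.00, 0.12 and 0.09 with all arrays.

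Among 17 measured enzymes from Hmgcs1 to Dhcr7, 13 had a negative difference, with a median of -0.076 beside 0.006 over all genes. None passed with all arrays (limma), and 5 had an unadjusted p under 0.05, all lower. Their mean level was 8.0, 8.08, 7.98, 7.99 and 8.08 in the HdhQ150 mice, against 8.15, 8.12, 8.10, 8.16 and 8.21 in the WT mice. All HdhQ150 means, that of mouse 1023 included, lay below all WT means. Cyp51, the lanosterol demethylase, had 7.03, 7.17, 7.17, 7.10 and 7.18 in the HdhQ150 mice, against 7.53, 7.47, 7.25, 7.52 and 7.37 in the WT mice. Its groups did not overlap, at a difference of -0.30 (limma adjusted p = 0.113). Msmo1, which removes the next methyl groups, had 8.48, 8.64, 8.44, 8.30 and 8.92 in the HdhQ150 mice, against 9.03, 8.92, 8.86, 8.89 and 9.13 in the WT mice. In Msmo1 only mouse 1023 of the HdhQ150 group lay in the WT range, and the difference was -0.43 (0.134). Idi1, the isomerase that makes the dimethylallyl unit of isoprenoids, differed by -0.40 (0.185), with HdhQ150 mouse 1003 in the WT range. Without mice 1023 and WT-454 these 3 passed, at -0.31, -0.49 and -0.39 (limma adjusted p = 0.0193, 0.00773 and 0.0298), which is 17.6% of the 17 enzymes, against 2.73% of all genes lower. Hsd17b7, another late enzyme, did not overlap between the groups but passed in neither fit (-0.30, 0.193).

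Genes of cholesterol export and turnover lay on the other side of 0, with a median of 0.104 and 7 of 10 positive, and 0 of 10 passed in either fit (limma), while 3 had an unadjusted p under 0.05, all higher. In 3 of them the groups did not overlap, with HdhQ150 higher (1.84% of all genes). Nr1h3, the liver X receptor that turns export genes on, had 6.70, 6.67, 6.90, 6.75 and 6.68 in the HdhQ150 mice, against 6.47, 6.58, 6.47, 6.49 and 6.46 in the WT mice. Its difference was 0.26 (limma adjusted p = 0.188). The other genes without overlap were the lipoprotein receptor gene Lrp1 (0.13, 0.227) and the sterol hydroxylase gene Cyp27a1 (0.21, 0.279). Cyp46a1, which makes the form of cholesterol that leaves the brain, differed by -0.07 (0.699), and the carrier gene Apoe by 0.06 (0.778). Of 12 fatty acid genes 0 passed with all arrays by limma, 1 higher and 3 lower had an unadjusted p under 0.05, and the elongase genes Elovl5 and Elovl7 passed lower without the 2 mice (-0.26 and -0.43), 16.7% of the 12 against 2.73% of all genes.

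**Figure D2:**
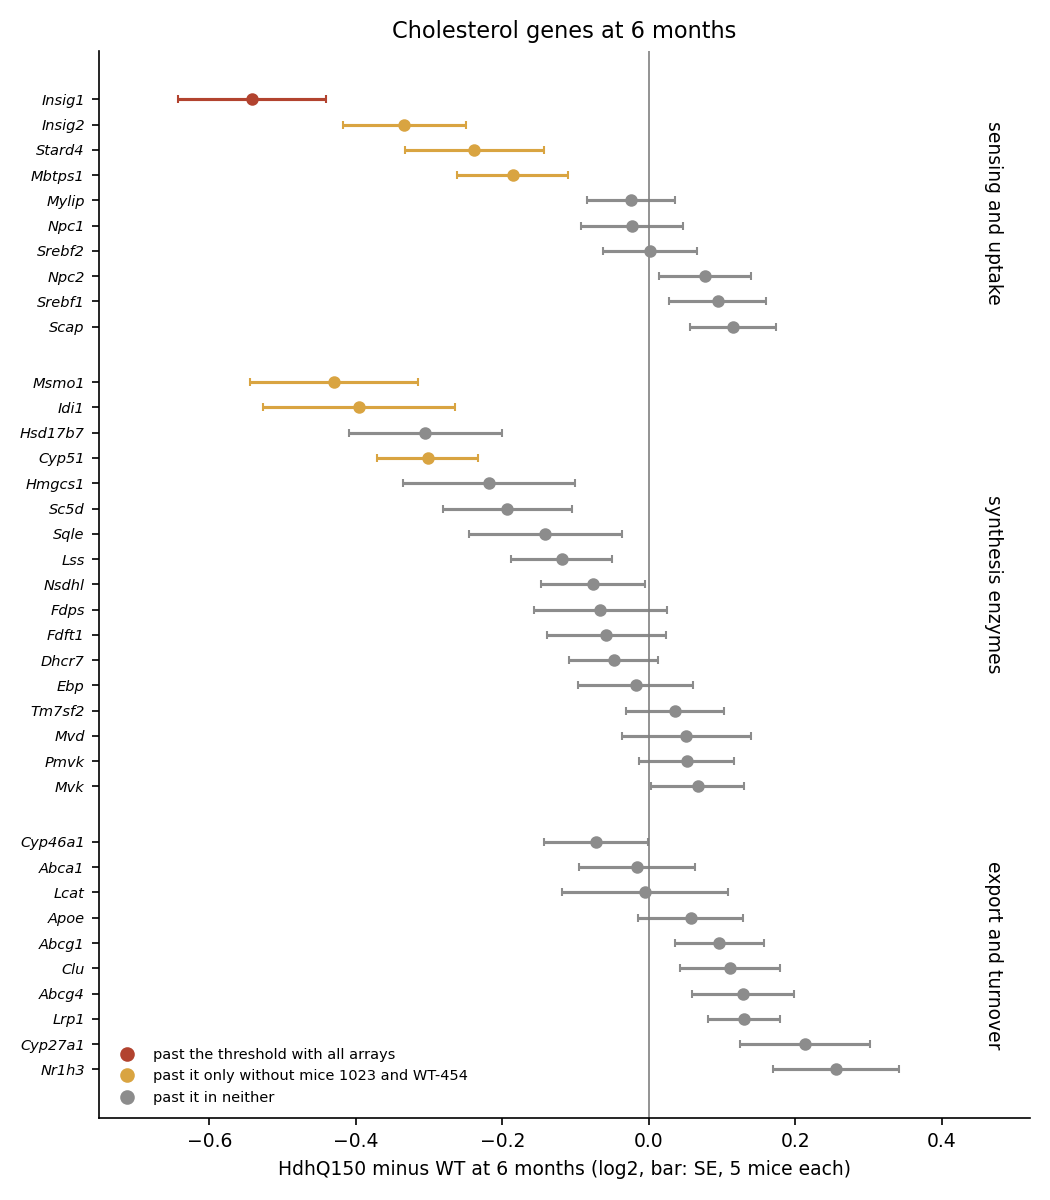
Difference between HdhQ150 and WT mice at 6 months (log2, points with SE, 5 mice each, all arrays) for the measured cholesterol genes in 3 roles. Insig1 at -0.54 is the gene that passed with all arrays, and the differences of the synthesis enzymes run from -0.43 for Msmo1 to 0.07 for Mvk.

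The promoters shown are those of Insig1 and of the 3 enzymes that passed without mice 1023 and WT-454. These genes are known targets of 1 regulator, SREBP, whose activity was not tested. SREBP works beside the factor NF-Y, which binds the letters CCAAT. Each line gives RefSeq's sequence of build GRCm38.p6 from 250 bases before to 50 after the gene's start, in the direction of the gene, with CCAAT on either strand (CCAAT or ATTGG) in capitals. The windows are chr5:28071162-28071461 (plus strand) for Insig1, chr5:4104648-4104947 (minus strand) for Cyp51, chr8:64733529-64733828 (minus strand) for Msmo1 and chr13:8885356-8885655 (plus strand) for Idi1.
Insig1: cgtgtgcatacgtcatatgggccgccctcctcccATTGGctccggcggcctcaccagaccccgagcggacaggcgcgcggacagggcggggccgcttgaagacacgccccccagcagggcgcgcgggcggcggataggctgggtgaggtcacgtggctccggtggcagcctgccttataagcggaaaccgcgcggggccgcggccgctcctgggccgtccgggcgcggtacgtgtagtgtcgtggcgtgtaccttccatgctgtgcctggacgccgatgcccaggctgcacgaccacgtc
Cyp51: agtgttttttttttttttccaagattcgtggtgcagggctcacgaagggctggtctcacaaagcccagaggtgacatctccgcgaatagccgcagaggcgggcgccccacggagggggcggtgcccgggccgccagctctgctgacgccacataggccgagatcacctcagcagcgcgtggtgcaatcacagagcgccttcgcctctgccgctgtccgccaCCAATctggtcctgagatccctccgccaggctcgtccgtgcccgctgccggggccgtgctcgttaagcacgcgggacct
Msmo1: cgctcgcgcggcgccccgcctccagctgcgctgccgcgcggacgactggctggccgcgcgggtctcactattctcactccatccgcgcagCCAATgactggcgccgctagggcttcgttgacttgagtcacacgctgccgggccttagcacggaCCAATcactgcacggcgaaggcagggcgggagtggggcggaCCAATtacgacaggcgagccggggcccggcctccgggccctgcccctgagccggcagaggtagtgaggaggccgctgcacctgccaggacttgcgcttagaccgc
Idi1: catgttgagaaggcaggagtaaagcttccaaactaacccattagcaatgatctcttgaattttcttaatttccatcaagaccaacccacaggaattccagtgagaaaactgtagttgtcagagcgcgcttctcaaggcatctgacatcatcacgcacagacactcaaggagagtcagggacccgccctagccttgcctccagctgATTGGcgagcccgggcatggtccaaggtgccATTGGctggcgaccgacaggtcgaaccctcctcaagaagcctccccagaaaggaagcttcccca
Msmo1 held 3 matches, Idi1 held 2, and Insig1 and Cyp51 held 1 each. Of the 17 measured enzymes 14 had a RefSeq promoter, and all 14 held CCAAT on either strand, against 41.7% of 15614 genes tested that had one. Among the sterol sensing genes it was 6 of 8, and among the export genes 3 of 7. The sterol element searched as TCACNCCAC on both strands was found in 1 enzyme gene of 14 (Hmgcs1), against 1.4% of all genes. A match is a description of letters and no evidence of binding, and a missing match says nothing of the factor. All enzymes with an entry held CCAAT, so it does not set those that passed apart from the others.

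Markers of striatal projection neurons mostly had negative differences, and in bulk tissue fewer cells of a type and less RNA per cell cannot be told apart. Of 28 markers 21 had a negative difference (median -0.132), 0 passed with all arrays (limma), and 10 had an unadjusted p under 0.05, all lower. The median was -0.048 without mouse 1017 and -0.171 without mouse 1001, the ends of its range over the alternative fits. Their mean level was 9.91, 9.72, 9.93, 9.57 and 9.99 in the HdhQ150 mice, against 9.88 to 10.08 in the WT mice. By this mean, mice 1001, 1016 and 1023 lay within the WT range. The part of mouse 1017 was not tested. Penk, the enkephalin gene of the indirect pathway, had 12.27, 12.06, 12.18, 12.02 and 12.39 in the HdhQ150 mice, against 12.53, 12.81, 12.49, 12.63 and 12.54 in the WT mice. The groups did not overlap, and HdhQ150 mouse 1023 and mouse WT-1011 were nearest to each other. The difference was -0.42 (SE 0.0903, limma adjusted p = 0.11) with all arrays and -0.47 (0.0104) without mice 1023 and WT-454. Pde10a, the phosphodiesterase that marks striatal spiny neurons, had 11.32, 11.13, 11.39, 10.98 and 11.51 in the HdhQ150 mice, against 11.62, 11.71, 11.54, 11.59 and 11.58 in the WT mice. HdhQ150 mouse 1017 was lowest, as in Penk, and the difference was -0.34 (0.119), or -0.40 (0.00962) without the 2 mice. Scn4b, a sodium channel subunit gene, differed by -0.51 (0.119) and its groups just failed to meet, HdhQ150 mouse 1016 at 9.96 lying below mouse WT-1011 at 9.97.

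Without mice 1023 and WT-454, 6 of the 28 projection neuron markers passed, all lower (21.4%, against 2.73% of all genes), among them Pde10a, Scn4b, the calcium-dependent phosphodiesterase gene Pde1b (-0.35) and the G protein regulator gene Rgs9 (-0.45). Of 9 indirect pathway markers 3 passed lower (33.3%), Penk and the receptor genes Gpr6 (-0.53) and Gpr52 (-0.63), and of 8 direct pathway markers 0 passed by limma, with or without the 2 mice, with 1 lower at an unadjusted p under 0.05 with all arrays. The difference between the 2 pathways was not tested. Projection neuron genes are among the brightest on these arrays, and of the 3988 brightest genes 11% passed in this fit, against 0.376% of the 3988 dimmest. Of the 3 indirect pathway genes that passed, mouse 1023 lay below the WT range for Penk but within it for Gpr6 and Gpr52, at 10.11 and 10.03, where the other 4 HdhQ150 mice had 9.34 to 9.71 and 9.07 to 9.59.

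Other well known markers did not pass in either fit. Drd1 had 9.67, 9.32, 9.58, 9.25 and 9.76 in the HdhQ150 mice, against 9.76, 9.95, 9.69, 9.74 and 9.72 in the WT mice. Its groups overlapped through mouse 1023, and the difference was -0.25 (limma adjusted p = 0.243). Drd2 differed by -0.21 (0.349), the cannabinoid receptor gene Cnr1 by -0.21 (0.333) and Ppp1r1b, which encodes the dopamine-regulated phosphatase inhibitor DARPP-32, by -0.17 (0.412), all with overlapping groups. The direct pathway peptide genes Tac1 and Pdyn stood at -0.07 and 0.09 (0.892 and 0.802).

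Calcium signalling genes had a median of -0.055, with 0 of 29 past the threshold by limma with all arrays, 1 higher and 5 lower at an unadjusted p under 0.05. Ryr1, a channel that releases calcium from the endoplasmic reticulum, had 7.51, 7.55, 7.52, 7.50 and 7.71 in the HdhQ150 mice, against 7.83, 7.99, 7.87, 7.84 and 7.89 in the WT mice. Its groups did not overlap, with mouse 1023 above the other 4 HdhQ150 mice, and the difference was -0.34 (limma adjusted p = 0.11). Without mice 1023 and WT-454, 5 of the 29 passed, all lower (17.2%, against 2.73% of all genes lower and 11% of the 3988 brightest in either direction): Ryr1 (-0.37), the calcineurin gene Ppp3ca (-0.27), the kinase gene Camk4 (-0.34), the channel subunit gene Cacna2d3 (-0.33) and the calcium pump gene Atp2b1 (-0.32).

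Among glia, a few oligodendrocyte genes came near the threshold. Mal, a myelin membrane protein gene, had 9.19, 9.23, 9.20, 9.02 and 9.37 in the HdhQ150 mice, against 9.63, 9.50, 9.67, 9.49 and 9.93 in the WT mice. No mice overlapped, and the difference was -0.44 (SE 0.0879, limma adjusted p = 0.0731), the smallest p of the genes that missed the threshold. Aspa, the enzyme that frees acetate from N-acetylaspartate for myelin lipids, had 7.50, 7.69, 7.54, 7.14 and 7.49 in the HdhQ150 mice, against 7.95, 8.08, 8.08, 7.83 and 8.57 in the WT mice. Ugt8a, which makes the main glycolipid of myelin, had 7.73, 7.84, 7.78, 7.76 and 7.94 in the HdhQ150 mice, against 8.59, 8.33, 8.17, 8.23 and 8.92 in the WT mice. Both genes were apart between the groups, with mouse 1023 among the other HdhQ150 mice in Aspa and just above them in Ugt8a. Their differences were -0.66 and -0.66 (limma adjusted p = 0.11 and 0.119). Without mice 1023 and WT-454 these 3 passed lower of 15 markers (20%, against 2.73% of all genes), at -0.48, -0.63 and -0.65. Mouse WT-1020 was the highest WT mouse in all 3, and its mean over the 15 markers was 9.45, where the other WT mice had 9.02 to 9.15 and the HdhQ150 mice 8.91 to 9.10. Without it the 3 differences were -0.36, -0.54 and -0.53 (limma adjusted p = 0.306, 0.348 and 0.348), and the median of the list was 0.013, against -0.057 with all arrays. The part of this array in the oligodendrocyte result was not tested. Cldn11, a tight junction gene of myelin, was also without overlap but passed in neither fit (-0.29, 0.16). Cnp differed by -0.10 (0.622). When mice 1023 and WT-454 were left out, Enpp6 (0.41) and Sirt2 (0.27) passed higher of 10 markers of newly formed cells, and Olig1 (0.31) of 10 precursor markers, against 1.63% of all genes higher. Tspan2 and Qdpr, in no list but known to be rich in oligodendrocytes, stood at -0.54 and -0.35 with no overlap (limma adjusted p = 0.11 for both).

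Il33, a nuclear cytokine made in the brain mostly by oligodendrocytes and astrocytes, had 7.89, 7.64, 7.84, 7.51 and 7.96 in the HdhQ150 mice, against 8.27, 8.24, 8.12, 8.14 and 8.63 in the WT mice. The groups did not overlap, at a difference of -0.55 (limma adjusted p = 0.083), or -0.46 (0.306) without mouse WT-1020, again the highest WT mouse. Microglia markers had mostly positive differences, with a median of 0.101 and 13 of 17 positive, and 0 passed in either fit (limma), with 5 higher and 0 lower at an unadjusted p under 0.05. In 4 of the 17 the HdhQ150 mice lay above all WT mice (1.84% of all genes), among them the complement gene C1qb (9.36 to 9.69 in HdhQ150 mice, against 8.95 to 9.25 in WT mice, difference 0.39, limma adjusted p = 0.191) and Selplg (0.28, 0.16). Astrocyte markers had a median of -0.12 with 0 of 15 past the threshold in either fit (limma; 1 higher and 4 lower at an unadjusted p under 0.05), and Gfap, which rises when astrocytes react to injury, stood at -0.13 (0.776). Of 14 interneuron markers the somatostatin gene Sst passed without the 2 mice, at 0.39 (0.0311), where 1.63% of all genes passed higher.

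**Figure D3:**
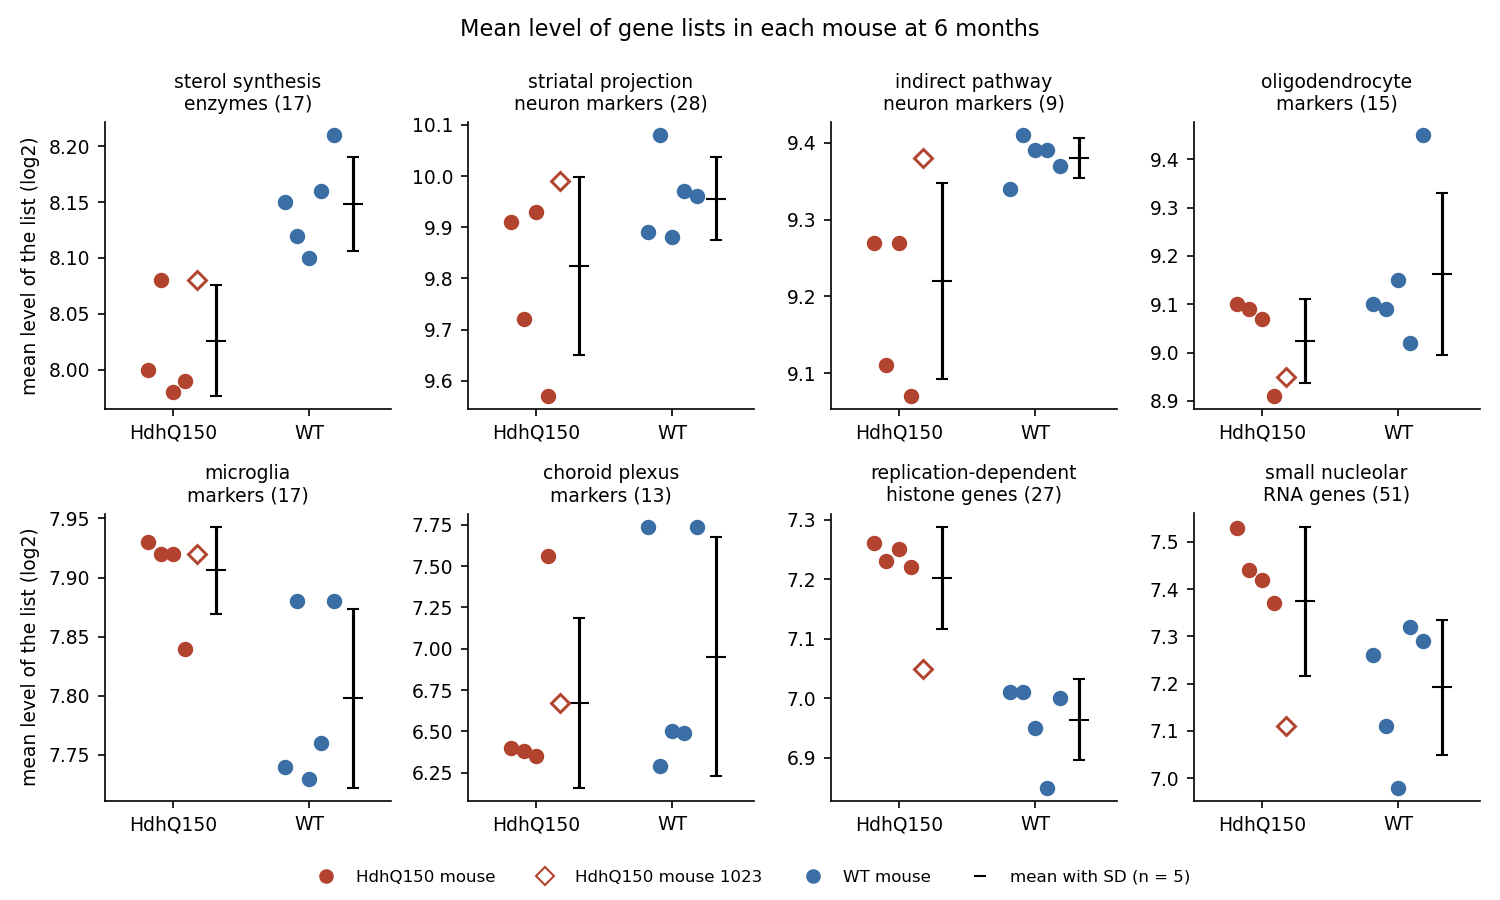
Mean level (log2) of 8 gene lists in each 6-month mouse, HdhQ150 left and WT right, with the number of genes in brackets and the mean and SD of 5 mice. Sterol enzymes and histone genes do not overlap between the groups, and choroid plexus markers split both groups. In histone and small nucleolar RNA genes mouse 1023 (open diamond) is the lowest HdhQ150 mouse.

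Histone and small nucleolar RNA genes came up among the genes with the smallest p, and both lists were written after their values were seen, so their counts describe and do not test. Replication-dependent histone genes encode the bulk of chromatin protein and are mostly made in dividing cells, as messages without a poly(A) tail. They had a median of 0.195, 25 of 27 were positive, and 10 passed higher without mice 1023 and WT-454 (37.0%, against 1.63% of all genes higher). Their mean level was 7.05 to 7.26 in the HdhQ150 mice, with mouse 1023 lowest, against 6.85 to 7.01 in the WT mice, without overlap. H2ac15 had 9.32, 9.43, 9.12, 9.09 and 8.83 in the HdhQ150 mice, against 8.92, 8.94, 8.68, 8.49 and 8.50 in the WT mice. Its groups overlapped through mouse 1023, and the difference was 0.50 (limma adjusted p = 0.119). H4c6 had 8.39, 8.46, 8.37, 8.21 and 7.71 in the HdhQ150 mice, against 7.69, 7.82, 7.67, 7.29 and 7.65 in the WT mice. In H4c6 mouse 1023 lay in the WT range and the other 4 HdhQ150 mice lay above it (0.61, 0.13). Histone genes are near copies of each other, so their probes may not be specific to 1 gene.

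Small nucleolar RNAs guide the chemical modification of ribosomal RNA and are cut from introns of host genes. Of 51 such genes 39 were positive (median 0.124), and without the 2 mice 10 passed higher and 1 lower (21.6%, against 4.35% of all genes). Snord49b had 12.26, 12.04, 12.17, 12.17 and 10.80 in the HdhQ150 mice, against 10.75, 10.34, 10.35, 10.72 and 10.52 in the WT mice. The 4 HdhQ150 mice other than 1023 lay well above the WT mice, while mouse 1023 was just above the highest WT mouse. The difference was 1.45 (SE 0.424, limma adjusted p = 0.148), or 1.64 (0.0246) without mice 1023 and WT-454. Snord57 had 12.51, 12.23, 12.48, 12.58 and 11.53 in the HdhQ150 mice, against 11.77, 11.68, 11.57, 11.76 and 11.78 in the WT mice. Here mouse 1023 was the lowest of all 10 mice. Rpl37a, a ribosomal protein gene, had the same form, with 10.45, 10.46, 10.49, 10.54 and 9.87 in the HdhQ150 mice, against 9.73, 9.92, 9.89, 9.82 and 9.77 in the WT mice, whereas of 36 measured cytosolic ribosomal protein genes, a list that did not hold Rpl37a, 0 passed in either fit by limma (1 higher and 4 lower at an unadjusted p under 0.05). Direction also varied with gene span. At a limma unadjusted p under 0.05 with all arrays, 210 of the 3713 protein-coding genes with the shortest span were higher and 85 lower. Of the 3711 with the longest span 227 were higher and 397 lower. The part of gene span or RNA quality in the histone, small nucleolar RNA and Rpl37a differences was not tested.

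Proteasome subunit genes had a median of -0.052, and 0 of 34 passed with all arrays (limma), with 4 higher and 13 lower at an unadjusted p under 0.05. Without the 2 mice 6 passed lower (17.6%, against 2.73% of all genes), among them the core subunit genes Psma6 (-0.46) and Psma5 (-0.24). Ube2v2, which encodes a partner of a ubiquitin-conjugating enzyme, had 8.87, 9.02, 8.92, 8.76 and 9.53 in the HdhQ150 mice, against 9.59, 9.48, 9.48, 9.70 and 9.65 in the WT mice. Mouse 1023 lay in the WT range and the other HdhQ150 mice below it (-0.59, limma adjusted p = 0.113). Other probe sets of Ube2v2, at a similar level, differed less, by -0.275 and -0.262 (limma unadjusted p = 0.0449 and 0.056, all arrays).

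Several other neuronal genes with a small p had positive differences. Syn3, a synaptic vesicle protein gene, had 9.49, 9.36, 9.45, 9.34 and 9.31 in the HdhQ150 mice, against 9.18, 9.28, 9.13, 9.13 and 9.01 in the WT mice. Its groups lay close but did not overlap, at a difference of 0.25 (limma adjusted p = 0.11). Dscaml1, a cell adhesion gene, stood at 0.34, Sipa1l3 at 0.35 and Ajap1 at 0.31, each with an adjusted p of 0.11, and the 4 genes passed without mice 1023 and WT-454 at 0.27, 0.38, 0.38 and 0.34. Nlgn1, which encodes a cell adhesion protein of excitatory synapses, passed lower in that fit (-0.38, 0.00724). Among 297 microRNA genes 0 passed with all arrays (limma; 23 higher and 9 lower at an unadjusted p under 0.05), and Mir26a-1 had the smallest p, with 6.70, 6.95, 6.93, 6.87 and 6.63 in the HdhQ150 mice, against 6.42, 6.48, 6.41, 6.16 and 6.26 in the WT mice. All HdhQ150 mice lay above all WT mice, at a difference of 0.51 (0.11), or 0.54 (0.0144) without the 2 mice. The probe set reads the gene or its precursor and may not measure the mature RNA. Its 2 mature products in RefSeq (GRCm38.p6, chr9:119031811-119031832 and chr9:119031850-119031871, plus strand) are shown with the seed, bases 2 to 8 from the 5′ end, in capitals.
mmu-miR-26a-5p: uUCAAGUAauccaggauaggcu
mmu-miR-26a-1-3p: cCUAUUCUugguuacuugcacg

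The fit that gave the 868 genes did not use mouse 1023, whose levels were set beside it. In 589 of them it lay on the same side of the WT mean as the other 4 HdhQ150 mice, in 246 it lay past the WT range on that side, in 569 it lay within the WT range, and in 53 beyond it on the opposite side. The median ratio of its distance from the WT mean to that of the other 4 mice was 0.17. For the 5 genes that passed with all arrays this ratio was 0.57 to 0.82, and mouse 1023 was past the WT range in all 5, although that fit had used it. For the 3 oligodendrocyte genes the median ratio was 0.77 and for the 3 sterol enzymes 0.59 (0.09 to 0.79). For the 4 sterol regulators that passed in that fit the median ratio was -0.16 (-0.53 to 0.57), with 3 in the WT range. For the 10 histone genes it was 0.22, with 8 in the WT range, for the 6 projection neuron genes 0.02, and for the 11 small nucleolar RNA genes -0.02. All these distances were taken from the same WT mean, which favours the same side and a positive ratio even without a genotype difference. The same counts and ratios over all genes were not computed, so they do not test whether mouse 1023 shares the differences. Whether mouse 1023 differs by genotype, by sample or by sex label was not tested.

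**Figure D4:**
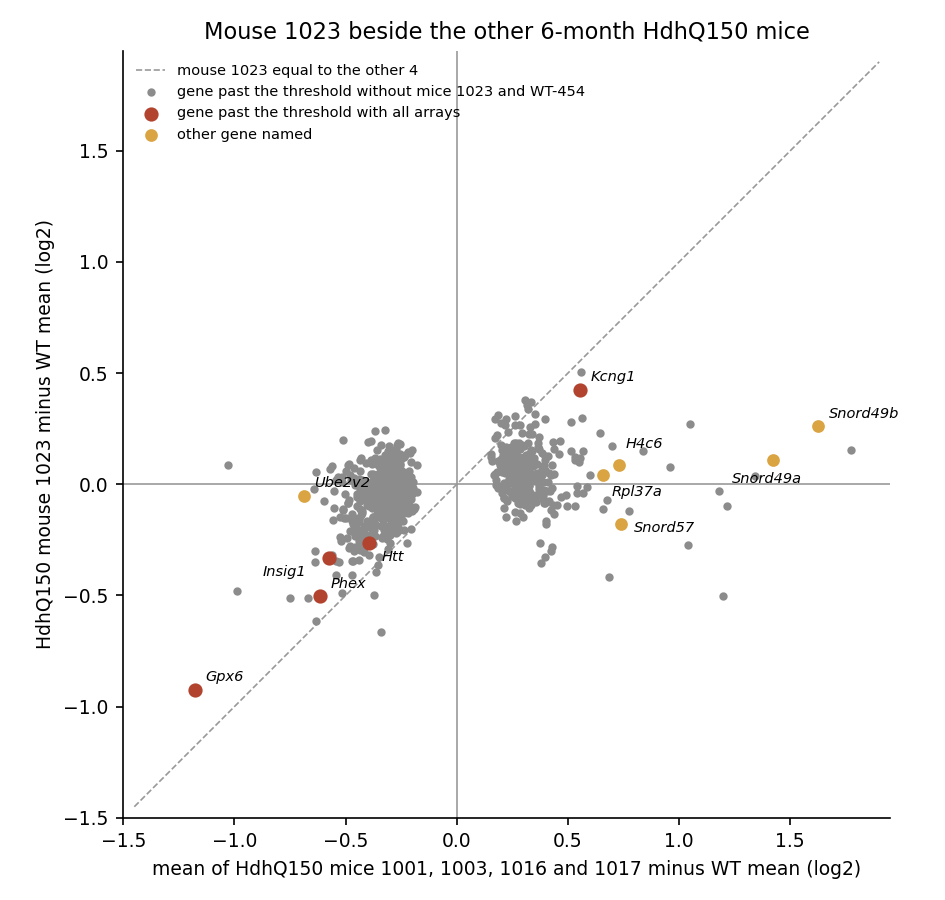
For the 868 genes that passed without mice 1023 and WT-454, the distance of mouse 1023 from the WT mean (vertical, log2) against the mean distance of the other 4 HdhQ150 mice (horizontal, log2), with the dashed line where both are equal. The 5 genes that passed with all arrays (red) lie near the line, and most other genes lie near 0 on the vertical axis, with a median ratio of 0.17. Both distances use the same WT mean, which favours a positive ratio.

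The 6-month differences were set beside those of the older, separate mice in the same fit, to ask which were shared. All 5 genes that passed at 6 months were on the same side at 12 months, where each passed again: Gpx6 at -1.49 (limma adjusted p = 1.24e-08), Kcng1 at 0.53 (5.64e-05), Htt at -0.41 (0.000122), Phex at -0.89 (2.5e-05) and Insig1 at -0.52 (0.00342), when 187 genes passed in all (0.938%), 67 higher (0.336%) and 120 lower (0.602%). At 18 months Gpx6 passed, at -1.17 (0.000144), and the other 4 did not, when 27 genes passed (0.135%), 11 higher (0.0552%) and 16 lower (0.0802%). Kcng1 stood at 0.02 at 18 months (0.998), with 8.67 to 8.93 in HdhQ150 mice, against 8.57 to 9.05 in WT mice (n = 4 each). The change of its difference between 6 and 18 months was -0.52 and did not pass (limma adjusted p = 0.471).

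One gene changed its difference between 6 and 12 months (0.00502% of genes), and of the 12-month mice only WT-454 was left out singly. Ryr1 stood at -0.34 at 6 months, -1.12 at 12 months and -0.63 at 18 months, and its difference changed by -0.78 between the first 2 ages (SE 0.105, limma adjusted p = 0.00068). Between 6 and 18 months 0 genes changed their difference (limma), with 1629 at an unadjusted p under 0.05. Penk stood at -0.42, -0.52 and -0.73 at the 3 ages, Pde10a at -0.34, -0.49 and -0.61, and Scn4b at -0.51, -0.82 and -0.91, and all 3 passed at 12 and at 18 months. Their changes between ages did not pass. Of the oligodendrocyte and sterol genes that missed the threshold at 6 months, Mal, Aspa, Ugt8a and Cyp51 did not pass at the older ages with all arrays: Mal stood at -0.23 and -0.06, Aspa at -0.12 and -0.10, Ugt8a at -0.28 and -0.19, and Cyp51 at -0.09 and -0.06 at 12 and 18 months. In the fit without mice 1023 and WT-454, Ugt8a (-0.50, limma adjusted p = 0.0283) and the sterol enzyme gene Msmo1 (-0.44, 0.00726) passed at 12 months as at 6 months. For these genes too the change between ages did not pass with all arrays, so they are not shown to be particular to 6 months.

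**Figure D5:**
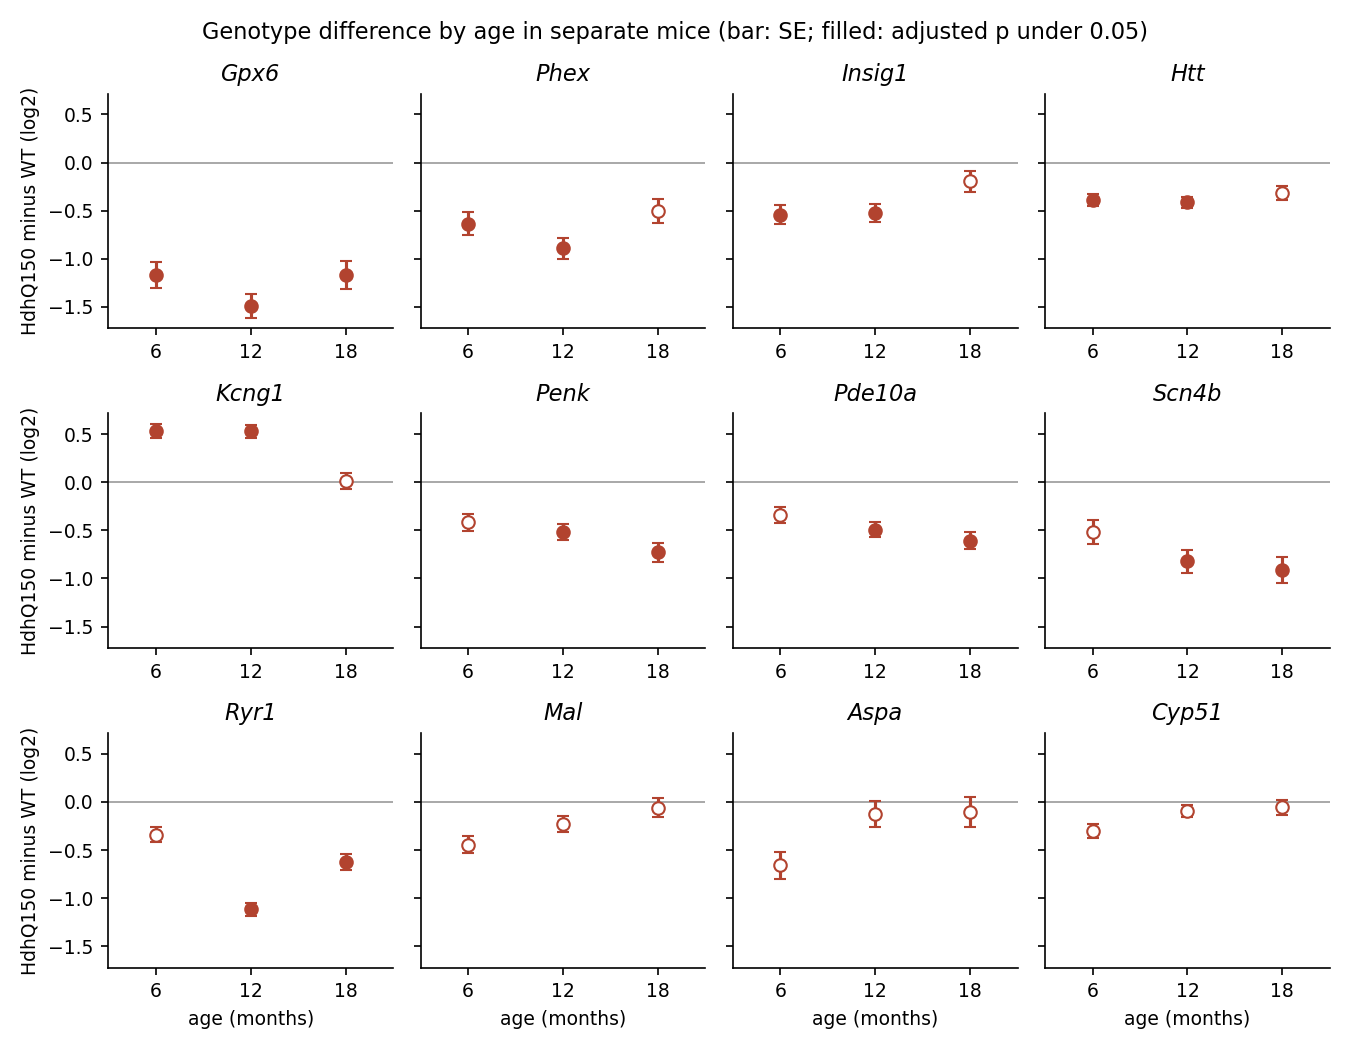
Difference between HdhQ150 and WT mice (log2, points with SE) at 6, 12 and 18 months in separate mice for 12 genes, filled where the limma adjusted p was under 0.05. Gpx6 is filled at all 3 ages, Penk, Pde10a, Scn4b and Ryr1 at 12 and 18 months, and Mal, Aspa and Cyp51 at none.

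Of the 868 genes, 273 of the 324 higher and 514 of the 544 lower had the same sign at 12 months, where 65.7% of all genes kept the sign of their 6-month difference. At 18 months it was 239 and 275, where 49.5% of all genes did. Both ages were estimated in 1 fit with a shared sex term. The median 12-month difference of these genes was 0.115 for those higher and -0.18 for those lower, against 0.30 and -0.32 at 6 months. In the same direction, 116 genes passed at both ages (23 higher and 93 lower), which is 13.4% of the 6-month genes and 22.8% of the 12-month genes in the fit without the 2 mice, and 0 passed in opposite directions. In that fit 2.55% of all genes passed at 12 months, 0.838% higher and 1.71% lower.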

How the data were processed

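Per the labels' protocols, RNA was isolated by TRIzol-chloroform and labelled by an Affymetrix kit. The authors deposited RMA values on a log2 scale, for which the submitters' processing notes name Affymetrix Expression Console without a version. RMA as commonly run subtracts background, forces all arrays to 1 distribution and condenses each probe set to 1 value, so a global shift cannot be seen and differences of dim genes are compressed. Levels lay between 1.08 and 14.11, and the arrays had medians between 6.91 and 7.05 over all probe sets. The number of arrays limits the precision.

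Of 35556 probe sets 21789 had 1 gene symbol, and names were matched to RefSeq GRCm38.p6 (21698 matched, and 91 kept the annotation's name). For the 999 genes with several, the probe set with the highest mean was kept, which left 19938 genes. Differences were fitted by limma 3.58.1 under R 4.3.3 (lmFit on all 29 arrays with 6 group means and the labelled sex, eBayes with trend, 22 residual degrees of freedom), two-sided, with p adjusted by Benjamini and Hochberg over all genes at 0.05. The change of the difference between ages was a contrast of the same fit. Scripts were tested on simulated data. Tables were made in Python 3.11.15.

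The comparison, the gene lists and the tests were chosen with earlier results of these data known. Genes were named where they passed, had 1 of the 15 smallest p in a direction (10 in the fit without mice 1023 and WT-454), were 1 of 10 genes set beforehand (Htt, Drd1, Drd2, Penk, Pdyn, Tac1, Ppp1r1b, Pde10a, Cnr1 and Gfap), or were among the 5 smallest p of a list (all members of lists of up to 13), with unnamed predicted genes skipped. Not every gene so named is given in the text. Other settings were no sex term, mouse 1023 entered as male, labelled females alone, fewer arrays, the brighter 50% of genes, array weights, robust or trendless eBayes, median centring, averaged or all probe sets, and each 6-month mouse or WT-454 left out in turn.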

Additional observations from a re-analysis of the deposited data

Results flagged for a closer look

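Among 94 groups of 5 mice, the 6-month groups of 47 named genes, 9 held a mouse far from the others of its group by Dixon's gap test, which chance flags in about 1 of 20 groups. HdhQ150 mouse 1023 was the distant mouse in 6 of the 9. Some of the 47 genes were named for a small p in the fit without this mouse, which favours genes where the other 4 HdhQ150 mice lie close together and far from the WT mice, so its count is not to be read against that rate. Its Htt level was 8.88 where the other HdhQ150 mice had 8.73 to 8.77, and Ryr1 was 7.71 where they had 7.50 to 7.55. For Ajap1 it had 10.30 against 10.51 to 10.55 in the others, for Rpl37a 9.87 against 10.45 to 10.54, and for Gng13, a G protein subunit gene, 7.65 against 8.08 to 8.20. The mitochondrial chaperone gene Hspa9 stood at 10 in this mouse and at 9.53 to 9.62 in the other HdhQ150 mice. HdhQ150 mouse 1003 had Pdyn at 7.95, below 8.25 to 8.37 in the others. Mouse WT-1002 had the transcription factor gene Klf3 at 7.93, below 8.03 to 8.05, and mouse WT-1004 had Drd1 at 9.95, above 9.69 to 9.76.

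The genotype difference of Ryr1 changed by -0.78 between 6 and 12 months by a test of the change itself (limma adjusted p = 0.00068). The difference was -0.34 at 6 months and -1.12 at 12 months.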

How the results depend on the processing

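The count of 5 genes at 6 months became 3 with no sex term, with mouse 1023 entered as male, in the brighter 50% of the genes, with median centring and over all probe sets, and 2 in labelled females alone. It was 11 in a fit of the 10 arrays alone, 18 without WT-454, 868 without 1023 and WT-454, and 1330 with array weights, and 3 to 188 when 1 of the 10 6-month mice was left out in turn. In fits chosen after seeing the data, mouse 1023 entered as male gave 44 with the 10 arrays alone and 26 without WT-454. The cause of these shifts was not tested. The count of changes between 6 and 12 months was 2 without mice 1023 and WT-454, and 1 to 2 when 1 of the 10 6-month mice or WT-454 was left out in turn (Ryr1, joined by Abi3bp without mouse WT-1004; the other 12-month mice were not left out singly), and that between 6 and 18 months was 6 with array weights, Kcng1 among them. Of 7759 values of named genes under other settings 7486 kept their sign, and 0 called values reversed. Of 1124 list medians 996 kept their sign. No paired analysis was possible because the mouse numbers are not shared between the groups. Batches were not tested.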
